A study of Mus musculus with 30 samples.

Results

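The genes for the proteins of the mitochondrial ribosome were examined in the ventral prostate (VP) of mice fed 3 kinds of dietary fat. They were taken as every protein-coding gene whose symbol starts with Mrpl (large subunit) or Mrps (small subunit) followed by a number, names ending in -ps left out. The rule gave 77 of the 39179 gene identifiers in the count tables, 48 Mrpl and 29 Mrps genes, and 5 of the 82 symbols of that form were set aside as pseudogenes. The RNA came from whole VP of 30 male C57BL/6 mice, 1 library per mouse and no pooling. From weaning, the mice received normolipidic diets of equal energy that differed in the fat, which was linseed oil (LO), soybean oil (SO) or pork fat, that is lard (PF). Feeding lasted 12 or 32 weeks, which made 6 groups of 5 mice. No group went without a test fat, so each diet was compared with the others. Mice fed for 32 weeks were also older than mice fed for 12 weeks, so time on the diet and age cannot be told apart. The labels do not say when the libraries were made or sequenced. Any such difference between the time points cannot be told apart from time either. Total counts on genes ran from 27590631 to 41301707 per mouse.

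Mitochondria keep a ribosome of their own, which translates the few mRNAs of the mitochondrial genome into core subunits of the respiratory chain and of ATP synthase. Its rRNAs are transcribed inside the organelle, while all of its proteins are encoded in the nucleus, made in the cytosol and imported. Many nuclear genes for mitochondrial proteins carry promoter sites for NRF1, for ETS-family factors such as GABP, or for YY1. The VP is a secretory gland whose luminal epithelial cells are known for an unusual citrate metabolism and for high output of secreted protein.

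Because these genes are spread over 17 chromosomes, a first look was taken at the DNA in front of them. Not all lie apart, as the loci of Mrpl46 and Mrps11 overlap on opposite strands. RefSeq promoter windows of the GRCm38.p6 assembly were at hand for 68 of the 77 genes (74 windows, some genes having more than 1 start), and the 250 bases upstream of each start were searched on both strands. The NRF1 core GCGCATGC was present in 7 of 74 member windows (9.46%), in 3.80% of the 15255 windows of all genes tested and in 2.26% of all 32851 windows. Its longer palindrome, the core followed by GC, which contains the core on both strands, occurred in 3 member windows (4.05%) and in 1.42% of the windows of genes tested. The ETS core CCGGAAG lay in 18 member windows (24.3%) against 11.9% of the windows of genes tested, and the YY1 core AAGATGGC in 4 (5.41%) against 1.85%. A match describes the letters in the window and is not evidence of binding. The 6 windows below are shown because they hold the NRF1 core and the first bases after their start lie within an annotated transcript of the gene. The start of the seventh window with the core, that of Mrps18b, does not. Each stretch is the 150 bases just before the start, 5′ to 3′ on the gene's own strand, with matches to the 4 motifs in capitals. The stretches lie at chr11:97041432-97041581 (+) for Mrpl10, chr7:105811088-105811237 (-) for Mrpl17, chr11:58171514-58171663 (+) for Mrpl22, chr13:14613038-14613187 (-) for Mrpl32, chr16:84735245-84735394 (-) for Mrpl39 and chr3:94443186-94443335 (+) for Mrpl9.
Mrpl10: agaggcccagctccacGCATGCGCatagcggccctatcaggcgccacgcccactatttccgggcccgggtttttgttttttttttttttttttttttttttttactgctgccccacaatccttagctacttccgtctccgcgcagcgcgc
Mrpl17: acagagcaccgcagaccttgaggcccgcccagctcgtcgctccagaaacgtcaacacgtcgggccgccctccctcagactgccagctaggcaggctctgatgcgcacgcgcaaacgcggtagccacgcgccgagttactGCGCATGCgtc
Mrpl22: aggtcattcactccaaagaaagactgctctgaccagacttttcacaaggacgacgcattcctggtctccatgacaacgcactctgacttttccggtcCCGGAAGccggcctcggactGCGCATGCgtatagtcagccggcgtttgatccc
Mrpl32: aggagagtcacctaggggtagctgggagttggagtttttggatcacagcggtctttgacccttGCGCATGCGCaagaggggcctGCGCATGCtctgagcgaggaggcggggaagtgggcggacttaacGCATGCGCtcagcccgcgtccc
Mrpl39: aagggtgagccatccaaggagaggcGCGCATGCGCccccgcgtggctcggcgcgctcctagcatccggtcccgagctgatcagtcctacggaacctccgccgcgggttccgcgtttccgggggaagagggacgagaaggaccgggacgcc
Mrpl9: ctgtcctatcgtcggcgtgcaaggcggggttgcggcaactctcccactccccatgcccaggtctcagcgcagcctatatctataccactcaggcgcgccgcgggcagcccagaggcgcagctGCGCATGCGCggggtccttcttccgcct
In the annotation used for the members' loci, the stretch of Mrpl39 lies wholly inside the gene, that of Mrpl32 with 128 of its 150 bases, and the other 4 with 3 to 22 bases. Mrpl32 held 3 separate matches in this stretch, 1 of them the palindrome. In the 150 bases printed, Mrpl22 was the member of these 6 with an ETS core beside the NRF1 core, while Mrpl17 has an ETS core further upstream, within the 250 bases searched. Mrpl10 and Mrpl17 are met again below, since they had the smallest p-values of the set over time on the SO diet. In the fit with offsets for transcript GC and length used below, their log2 differences on SO were -0.17 and -0.33. Those of Mrpl22, Mrpl9, Mrpl39 and Mrpl32 were -0.12, -0.11, -0.03 and -0.003. A link between the NRF1 core and the change over time was not tested.

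Of the 77 genes, 76 were detected well enough to be tested in every comparison. Mrpl53 (ENSMUSG00000030037, chr6:83109040-83109939), a large-subunit protein gene that overlaps another gene on each strand, had 0 counts in all 30 libraries. Among the 76 others the lowest mean count was 230.2 and the lowest single count 113, so counting error adds to the spread of the lowest members. Together they took 0.162% to 0.255% of all counts in a mouse. Their mean level over the 30 mice ran from 6.68 to 73.5 CPM (counts scaled to a library of equal size with TMM factors), with a median of 23.1 CPM. Members were also compared per kilobase of annotated exon, where the range was 1.77 to 49.9 CPM per kb, a 28.1-fold spread, and the median was 10.2 CPM per kb against 3.35 over all genes tested that have a length. In 36 of the 77 loci another annotated gene overlaps, in 32 of them one on the opposite strand, and whether counting used strand was not given in the sources used here.

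The highest level per exon length belonged to Mrps21, a small-subunit protein, at 49.9 CPM per kb (chr3:95862634-95871519, 36.9 ± 5.21 CPM, SD, n = 30 mice). Next came Mrpl10, a protein of the stalk that recruits translation factors, at 35.7 CPM per kb (ENSMUSG00000001445, chr11:97041560-97049213, 60.9 ± 5.94 CPM). Mrpl24, a large-subunit protein with a bacterial counterpart, had 32.6 CPM per kb and the highest level before length was considered (chr3:87919506-87923672, 73.5 ± 6.93 CPM). Mrps21 kept the first place when the median transcript length replaced the exon length, and Mrpl10 then stood in place 8 and Mrpl24 in place 5. The lowest levels per exon length were those of Mrps22, a small-subunit protein with no bacterial counterpart, at 1.77 CPM per kb (chr9:98588730-98601660), of Mrps35 at 1.91 CPM per kb (chr6:147042764-147073991) and of Mrpl23, a protein near the exit of the peptide tunnel, at 2.61 CPM per kb (chr7:142532686-142540747). With the median transcript length, Mrps22, Mrps35 and Mrpl23 stood in places 67, 66 and 42. The lowest were then Mrpl19, Mrps25 and Mrpl47, at 2.95, 3.78 and 3.84 CPM per kb.

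Proteins of 1 functional site were not equally represented in mRNA. Of the stalk pair, Mrpl12 had 21.1 CPM per kb beside the 35.7 of Mrpl10. Mrps12, the protein of the decoding centre, had 15.8 CPM per kb, and the small-subunit proteins with bacterial counterparts Mrps7, Mrps15, Mrps16, Mrps2 and Mrps5 had 16.8, 13.7, 8.09, 7.14 and 5.73 CPM per kb. The 3 paralogs of bacterial S18 ranked in the order Mrps18c, Mrps18b and Mrps18a, at 16.9, 13.0 and 7.21 CPM per kb, of which Mrps18a is known to sit in the large subunit in spite of its name. On the transcript scale that order turned, with Mrps18a at 35.4, Mrps18b at 33.7 and Mrps18c at 28.5 CPM per kb. Mrps34, needed for a stable small subunit, had 13.6 CPM per kb, and Mrps36, a protein since assigned to the 2-oxoglutarate dehydrogenase complex, 5.78. Among large-subunit genes Mrpl44 had 11.4, Mrpl11 7.18, Mrpl58 6.38, Mrpl3 4.20, Mrpl19 2.71 and Mrpl32 2.65 CPM per kb. Other orders also depended on the length used. On the transcript scale Mrpl11 (34.95 CPM per kb) stood above Mrpl44 (13.1), and Mrps15 (24.7) above Mrps7 (17.7). The stalk pair kept its order there, with Mrpl10 at 49.7 and Mrpl12 at 24.5 CPM per kb. Mrpl58 encodes a peptidyl-tRNA hydrolase that became part of the ribosome.

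Over the 30 mice, the coefficient of variation of a member ran from 5.53% (Mrpl37, a large-subunit protein with no bacterial counterpart) to 51.3% (Mrps12), with a median of 11.5%. A large share of the widest variation sat in the mice that carry replicate number 1 in their group. For 11 of 76 members (14.5%), mouse 1 was the highest of its group in all 6 groups, against 8.06% of the 16605 genes tested. Those 11 were Mrpl28, Mrpl34, Mrpl36, Mrpl43, Mrpl52, Mrpl54, Mrpl57, Mrps12, Mrps26, Mrps28 and Mrps34, named here after their values were seen. No member was highest in all 6 groups in any of the mice numbered 2 to 5, where 1 or 2 of all genes tested were.

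Mrps12 (ENSMUSG00000045948, chr7:28739641-28741820) showed this most. In the LO group at 12 weeks it stood at 31.9, 12.4, 14.3, 11.4 and 10.4 CPM in mice 1 to 5, in the SO group at 34.4, 12.4, 13.2, 12.6 and 16.5 CPM, and in the PF group at 25.5, 14.9, 14.7, 14.6 and 12.1 CPM. At 32 weeks the LO mice had 28.0, 10.9, 12.8, 13.7 and 10.4 CPM, the SO mice 26.9, 9.58, 12.3, 10.4 and 11.02 CPM, and the PF mice 44.0, 12.6, 12.1, 13.4 and 13.7 CPM. Thus the 6 mice numbered 1 had 25.5 to 44.0 CPM and the 24 others 9.58 to 16.5 CPM, with no overlap and in every diet. Mrpl34, a small large-subunit protein, had 12.1, 9.82, 13.2, 10.9, 17.7 and 11.7 CPM in mouse 1 of the LO, PF and SO groups at 12 weeks and of the LO, PF and SO groups at 32 weeks, against 3.98 to 8.16 CPM in the others.

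The labels give no reason why mice numbered 1 should differ. The 11 genes had a median transcript GC content of 56.7% and a median transcript length of 783 bases, beside 50.5% and 1095 bases for all members. Across all genes, the deviation of each mouse numbered 1 from its group went with transcript GC at r = 0.30 to 0.46, while the other mice ran from r = -0.41 to 0.22. With log2 transcript length the mice numbered 1 ran from r = -0.08 to 0.08, except PF mouse 1 of 32 weeks (r = -0.25). The part of these in the members' values was not tested. In the opposite direction, 0 members had mouse 1 as the lowest of its group in all 6 groups (2.18% of all genes), and mouse 1 was the lowest of its group in the 5 groups other than PF at 32 weeks for 4 members, Mrpl3, Mrpl35, Mrpl50 and Mrps18c (5.26%, against 3.54% of all genes). These 4 had a median GC of 44.3% and a median length of 2212 bases. The 18 members above 55% GC had a median coefficient of variation of 24.2%, and the others 11.2%.

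**Figure D1:**
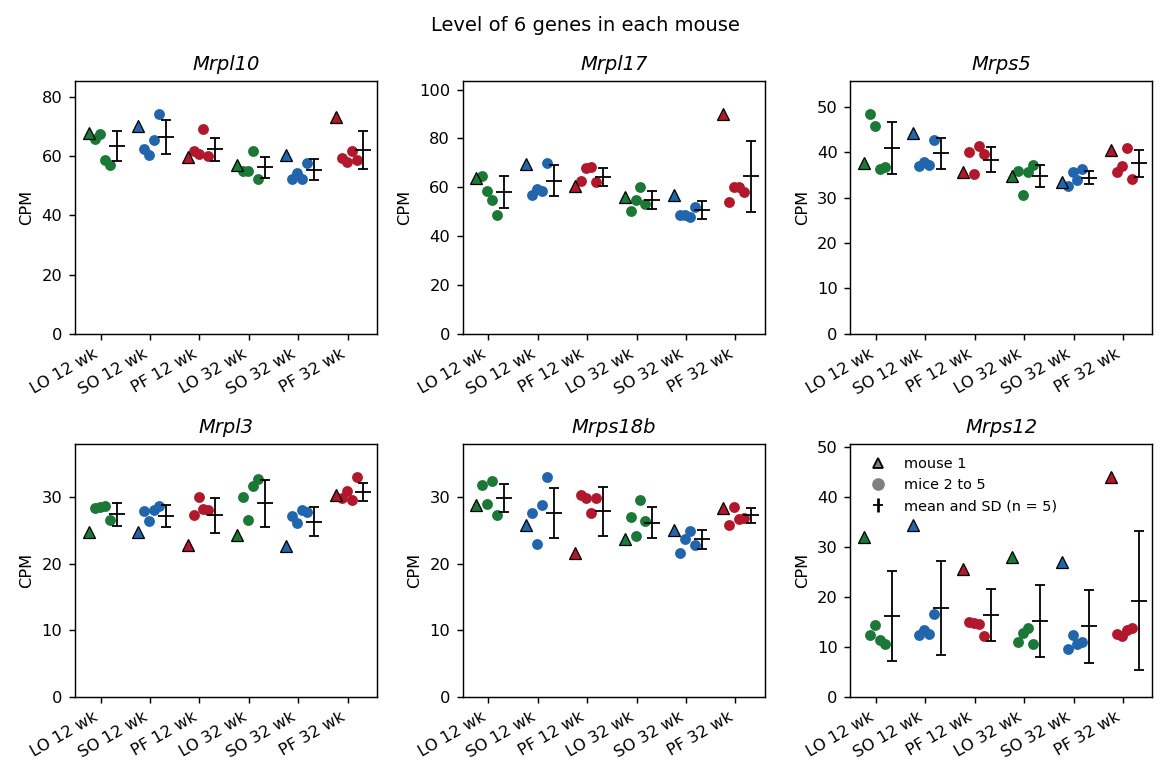
Normalized level (CPM, linear axis) of 6 members in each of 30 mice, by diet and weeks on the diet; triangles are the mice numbered 1, dots the mice 2 to 5, and bars the group mean and SD (n = 5). Mrps12 separates mice numbered 1 (25.5 to 44.0 CPM) from the other 24 (9.58 to 16.5 CPM) in all diets, while Mrpl3 and Mrps18b in PF mice at 32 weeks lie above all SO mice of that time point.

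To follow the set as a whole, a score was formed for each mouse as the mean log2 CPM over the 76 members. At 12 weeks the LO mice scored 4.56, 4.45, 4.41, 4.37 and 4.26, the SO mice 4.65, 4.36, 4.38, 4.44 and 4.54, and the PF mice 4.42, 4.41, 4.47, 4.52 and 4.50. At 32 weeks the scores were 4.47, 4.30, 4.38, 4.50 and 4.45 for LO, 4.48, 4.24, 4.32, 4.34 and 4.41 for SO, and 4.97, 4.38, 4.39, 4.43 and 4.50 for PF. Every pair of groups overlapped. The group means were 4.41 ± 0.11 (LO), 4.47 ± 0.12 (SO) and 4.46 ± 0.05 (PF) at 12 weeks and 4.42 ± 0.08, 4.36 ± 0.09 and 4.53 ± 0.25 at 32 weeks (SD, n = 5). The pooled SD within groups was 0.13, and the difference of PF from SO at 32 weeks was 0.17. PF mouse 1 at 32 weeks stood apart, and without it the PF mean was 4.42 ± 0.06 and the difference from SO was 0.07. Taken separately, the Mrps and the Mrpl genes had means of 4.42 ± 0.24 and 4.60 ± 0.26 in PF mice at 32 weeks and of 4.24 ± 0.08 and 4.43 ± 0.10 in SO mice. In bulk tissue, a lower level per cell and fewer cells that express the genes cannot be told apart.

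PF mouse 1 at 32 weeks was the highest of all 30 mice for 58 of 76 members, and above the rest of its own group for 67. The shares of all genes tested for which this held were not worked out, so these counts are not shown to be particular to the members. Mrps14, a protein of the small-subunit head, read 46.0, 35.4, 34.9, 33.6 and 35.4 CPM in the PF mice, and Mrpl17, a large-subunit protein with a bacterial counterpart, 90.0, 53.8, 60.3, 60.1 and 58.0 CPM. The excess of this mouse over the mean of the other 4 PF mice differed with transcript length. It was 0.63 on the log2 scale (median) for the 23 members with transcripts under 800 bases, 0.54 for the 18 of 800 to 1200 bases and 0.30 for the 35 longer ones. Over all genes of the same 3 classes the medians were 0.17, 0.25 and -0.10. The library of this mouse was the deepest, 41301707 counts, and had the lowest share of reads not assigned to a gene (23.7%), and its summed level of 5 luminal epithelial markers was also the highest of all mice, 2834 CPM against 2102 to 2552. What part these play was not tested, and the counts and medians of the members for PF at 32 weeks are therefore given with and without this mouse.

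**Figure D2:**
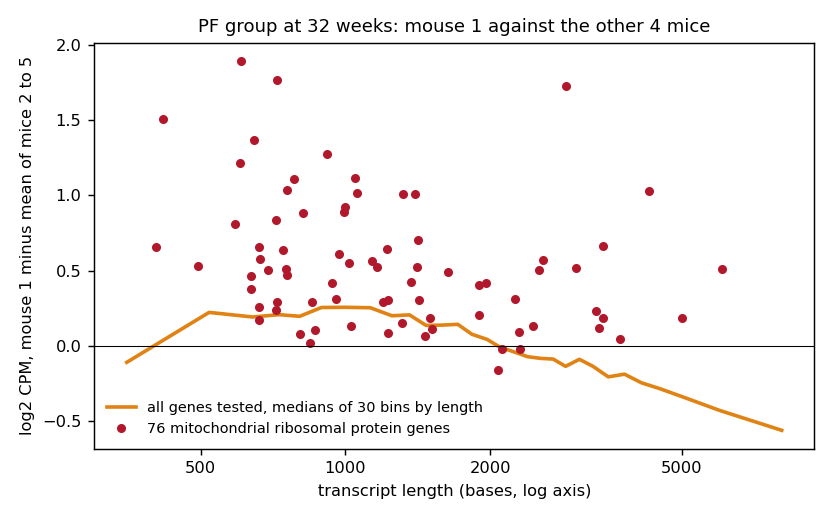
Difference of PF mouse 1 at 32 weeks from the mean of the other 4 PF mice of that time (log2 CPM) for each member (dots) against its median transcript length (log axis, bases), with the running median of all genes tested as a line. The medians fall from 0.63 under 800 bases to 0.54 and 0.30 in the 2 longer classes, and remain above those of all genes (0.17, 0.25 and -0.10).

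At 12 weeks, the comparisons asked whether the kind of fat changed expression in the shorter feeding period. No member passed the test between diets. For PF against SO, edgeR's quasi-likelihood test with Benjamini-Hochberg adjustment called 0 of 76 members and 0% of 15873 genes, 0 members had an unadjusted p under 0.05 in either direction (6.14% of all genes higher, 1.86% lower), and DESeq2 called 0 members and 0.887% of the 25367 genes it was given. The members were split evenly, 38 positive of 76, with a median log2 difference of 0.00 and a range of -0.13 to 0.11. When single mice were left out, 29 (without SO mouse 2) to 58 members (without SO mouse 1) were positive. The smallest p belonged to Mrpl44, a large-subunit protein resembling an RNase III, with 16.1, 17.5, 18.03, 19.4 and 18.6 CPM in PF and 20.5, 18.9, 18.6, 20.6 and 20.2 CPM in SO. The groups overlapped, and its log2 difference was -0.13 ± 0.07 (SE, adjusted p = 0.765). Mrpl15 (0.11 ± 0.07, adjusted p = 0.872) and Mrpl27 (0.11 ± 0.07, adjusted p = 0.897), both of the large-subunit core, followed.

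PF against LO at 12 weeks gave 0 calls by edgeR (0% of all genes) and 0 by DESeq2 (0.296%), and 6 members were higher at an unadjusted p under 0.05 (4.31% of all genes) and 0 lower (4.93%). A positive difference was seen in 53 of 76, the median being 0.04. Without LO mouse 5 it was 42 of 76 and 0.01, and without PF mouse 5 the number past that p became 0. Without the mice numbered 1, 65 of 76 were positive with a median of 0.09, and 15 were past that p. Mrpl21, a large-subunit protein with a bacterial counterpart, had 17.5, 18.4, 20.2, 19.2 and 20.4 CPM in PF and 17.9, 17.8, 16.1, 16.7 and 16.6 CPM in LO, groups that overlap (0.18 ± 0.07, adjusted p = 0.497). Mrpl23 stood at 0.17 ± 0.07 (adjusted p = 0.519, and 0.11 with offsets for transcript GC and length) and Mrpl13 at 0.21 ± 0.09 (adjusted p = 0.525). In LO against SO, 0 members were called by edgeR (0% of all genes) or DESeq2 (0%), 19 of 76 were positive and the median was -0.05. Without LO mouse 5 or SO mouse 1, 31 of 76 were positive and the median was -0.02. At an unadjusted p under 0.05 there was 1 member higher (2.52% of all genes) and 1 lower (1.76%). The lower one was again Mrpl21, which had 22.1, 19.9, 19.9, 18 and 18.8 CPM in SO, all above the LO mice (-0.21 ± 0.07, adjusted p = 0.999). It was the single member whose groups did not overlap there, and 0.403% of all genes were lower without overlap. Mrpl47 had a difference of 0.21 ± 0.09 and Mrpl28 of -0.25 ± 0.13 (-0.12 without SO mouse 1), both with an adjusted p of 0.999.

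At 32 weeks, again 0 members were called between PF and SO by edgeR's quasi-likelihood test (0% of 16218 genes) or DESeq2 (0.424% of the 25678 genes it was given). The members nevertheless leaned to one side, with 75 of 76 higher in PF, a median log2 difference of 0.21 and a highest value of 0.47, while all genes had a median near 0. At an unadjusted p under 0.05, 15 members were higher (5.71% of all genes) and 0 lower (5.07%), and 19 were past it in DESeq2. Without PF mouse 1 the number higher became 58 of 76, the median 0.07 and the number past that p 6. Without PF mouse 2 the number past that p was 25, and without SO mouse 2 it was 8. Without the mice numbered 1 of all groups, 70 of 76 were positive, the median was 0.10 and 10 were past that p.

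Mrpl30, a large-subunit protein with a bacterial counterpart, had the smallest p. It read 65.8, 55.7, 52.7, 54.8 and 57.6 CPM in PF and 48.5, 47.6, 51.0, 48.6 and 52.8 CPM in SO, where a single SO mouse reached just above the lowest PF mouse (0.21 ± 0.08, adjusted p = 0.385). With offsets for transcript GC and length its difference was 0.11. Mrps30, named for the small subunit but located in the large one, had 22.5, 18.9, 21.1, 17.02 and 20.1 CPM in PF and 13.8, 16.6, 17.5, 16.4 and 17.4 CPM in SO, with a small overlap (0.29 ± 0.11, adjusted p = 0.390, and 0.18 without the mice numbered 1). For 2 members the groups did not overlap, while 1.35% of all genes were higher in PF in this way. One was Mrps18b (ENSMUSG00000024436, chr17:35910379-35916389), at 28.4, 25.7, 28.5, 26.7 and 26.8 CPM in PF and 25.1, 21.6, 23.6, 24.9 and 22.8 CPM in SO (0.21 ± 0.08, adjusted p = 0.390). The other was Mrpl3, which lies near the peptidyl transferase centre, at 30.3, 29.8, 30.9, 29.6 and 33.1 CPM in PF and 22.6, 27.2, 26.1, 28.1 and 27.7 CPM in SO (0.23 ± 0.08, adjusted p = 0.392). The lowest PF value was that of mouse 2 for Mrps18b (25.7 CPM) and of mouse 4 for Mrpl3 (29.6 CPM). Both genes were picked because their groups did not overlap, so leaving out PF mouse 1 could not make them overlap.

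PF against LO at 32 weeks had 76 of 76 members positive with a median of 0.16, and 0 calls by edgeR (0% of all genes) or DESeq2 (0.331%), with 2 members higher at an unadjusted p under 0.05 (4.48% of all genes) and 0 lower (4.12%). Without PF mouse 1, 45 of 76 were positive, the median was 0.03 and 2 were past that p, while without PF mouse 2 there were 12 past it. Mrps14 had 27.6, 31.4, 30.3, 34.5 and 33.3 CPM in LO, which overlaps the PF values given above (0.26 ± 0.10, adjusted p = 0.476), and its difference was 0.15 without PF mouse 1. Mrpl50, a large-subunit protein with no bacterial counterpart, had 25.1, 24.6, 27.1, 23.98 and 26.1 CPM in PF and 18.7, 22.6, 21.2, 22.4 and 26.1 CPM in LO, where 1 LO mouse lay among the PF mice (0.21 ± 0.08, adjusted p = 0.507, and 0.13 with the offsets). Mrps30 stood at 0.22 ± 0.10 (adjusted p = 0.595, and 0.10 without the mice numbered 1). LO against SO had 64 of 76 members positive, a median of 0.05, 0 calls by edgeR (0% of all genes) and DESeq2 (0.0234%), and 0 members past an unadjusted p of 0.05 in either direction (1.50% and 1.99% of all genes). The smallest p-values there were those of Mrps18b (0.13 ± 0.08), Mrpl3 (0.13 ± 0.08) and Mrps6 (0.22 ± 0.16), each with an adjusted p of 0.9997. The median was 0.02 without SO mouse 2 and 0.08 without SO mouse 1. The comparisons share groups, so their directions are not independent of each other.

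**Figure D3:**
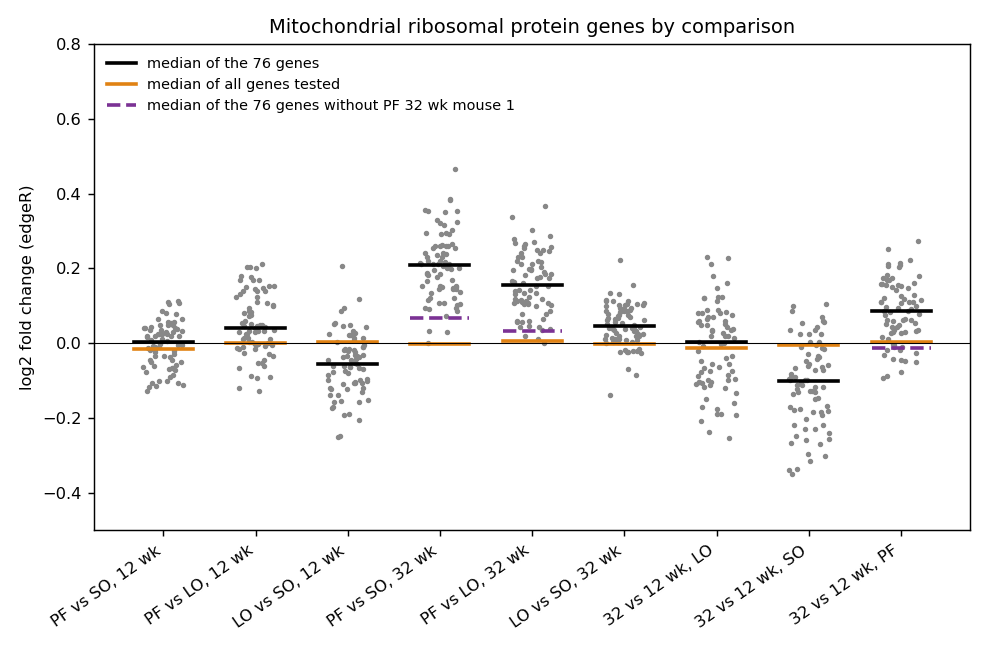
Log2 fold changes of the 76 members (dots) in each of the 9 diet and time comparisons, with lines for the median of the members, that of all genes tested and, dashed, that of the members without PF mouse 1 of 32 weeks. The members lie above 0 in PF against SO (75 of 76) and PF against LO (76 of 76) at 32 weeks and mostly below 0 over time on SO (15 of 76 above), with medians of 0.21, 0.16 and -0.10.

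Over time on a diet, the single call among members was Mrpl10, which fell from 12 to 32 weeks in SO mice. It read 70.0, 62.4, 60.2, 65.3 and 74.1 CPM at 12 weeks and 60.2, 52.1, 54.3, 52.2 and 57.7 CPM at 32 weeks. The lowest mouse at 12 weeks and the highest at 32 weeks, that is mouse 3 and mouse 1, had almost the same level (60.18 and 60.19 CPM). Mrpl10 fell by 0.26 ± 0.07 on the log2 scale (SE, edgeR's quasi-likelihood test with Benjamini-Hochberg adjustment, adjusted p = 0.0350), a call that DESeq2 also made (1 of 76 members, 5.59% of the 26704 genes it was given). In edgeR this was 1 of 76 members where 6.46% of the 16605 genes tested were called. The call was lost without SO mouse 1, 4 or 5 of 12 weeks, without SO mouse 2, 3 or 4 of 32 weeks, or when only the 2 SO groups entered the fit. With offsets for transcript GC and length Mrpl10 was still called, with a log2 difference of -0.17. The locus also holds Gm11574 on the opposite strand.

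As a set, the members in SO mice had 15 positive of 76 and a median of -0.10, and those past an unadjusted p of 0.05 were 6 lower (7.11% of all genes) and 0 higher (12.6%). Without SO mouse 1 of 12 weeks the median was -0.06, 20 of 76 were positive and 3 were lower past that p. That number was also 3 without SO mouse 2 of 32 weeks, and 11 without SO mouse 1 of 32 weeks. For 3 of the members the time points did not overlap, while 2.60% of all genes were lower in this way. Mrpl17 (ENSMUSG00000030879, chr7:105803206-105811099) had 69.6, 57.0, 59.1, 58.3 and 69.8 CPM at 12 weeks and 56.9, 48.8, 48.5, 47.9 and 52.1 CPM at 32 weeks, the nearest pair of mice being 57.0 and 56.9 (-0.30 ± 0.10, adjusted p = 0.0881). Mrps5 (ENSMUSG00000027374, chr2:127587222-127606829), of the small-subunit body, had 44.3, 37.1, 37.9, 37.2 and 42.8 CPM at 12 weeks and 33.6, 32.6, 35.7, 34.0 and 36.3 CPM at 32 weeks (-0.20 ± 0.08, adjusted p = 0.152). Mrps24, singled out after its values were seen, had 37.0, 26.2, 28.8, 27.2 and 28.4 CPM and then 25.3, 20.7, 25.8, 22.9 and 24.3 CPM (-0.30 ± 0.14, adjusted p = 0.239), and it overlaps Urgcp on its own strand. With offsets for transcript GC and length in the fit, Mrpl17 was called beside Mrpl10, against 9.86% of all genes, and without the mice numbered 1 the same pair was called, against 8.88%. With the offsets, the members lower on SO at an unadjusted p under 0.05 were Mrpl10, Mrpl17, Mrpl20, Mrpl30, Mrpl42, Mrps5, Mrps17, Mrps18b, Mrps21 and Mrps24. The share of all genes at that p with the offsets is not given here.

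In LO mice 39 of 76 members were positive over time with a median of 0.00, and 0 members were called by edgeR (2.70% of all genes) or DESeq2 (4.08%). At an unadjusted p under 0.05 there were 3 higher (11.4% of all genes) and 3 lower (9.14%). With offsets for transcript GC and length, 27 were positive and the median was -0.04, with 1 higher and 13 lower at that p. With the offsets, more members were thus lower at that p on LO than on SO. When single mice were left out, 34 (without LO mouse 5 of 12 weeks) to 53 members (without LO mouse 1 of 12 weeks) were positive. Mrps5 had 37.6, 48.4, 45.7, 36.3 and 36.8 CPM at 12 weeks and 34.7, 35.8, 30.6, 35.7 and 37.1 CPM at 32 weeks, with overlap in the lower part (-0.25 ± 0.08, adjusted p = 0.0784), and without LO mouse 2 of 12 weeks its difference was -0.17. Mrps35, of the small subunit, went the other way, from 15.5, 14.4, 15.6, 14.9 and 14.8 CPM to 15.3, 18.3, 18.1, 19.4 and 18.03 CPM, where LO mouse 1 of 32 weeks alone stayed within the 12-week range (0.23 ± 0.08, adjusted p = 0.118). Without the mice numbered 1, Mrps35 and Mrpl13 were called higher in LO mice, against 2.78% of all genes. With the offsets, Mrps18b was called lower in LO mice (log2 difference -0.30), against 9.61% of all genes. Mrpl10 had 67.9, 65.7, 67.4, 58.7 and 56.9 CPM at 12 weeks and 56.8, 55.04, 54.9, 61.8 and 52.3 CPM at 32 weeks, which overlap (-0.19 ± 0.07, adjusted p = 0.135, and -0.12 with the offsets).

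PF mice had 61 of 76 members positive over time with a median of 0.09, and 0 called by edgeR (0.0301% of all genes) or DESeq2 (0.195%), with 5 higher at an unadjusted p under 0.05 (4.98% of all genes) and 0 lower (5.23%). Without PF mouse 1 of 32 weeks, 34 of 76 were positive, the median was -0.01 and 2 were higher past that p. Without PF mouse 3 of 32 weeks the median was 0.14, and without PF mouse 4 of 32 weeks 12 were past that p. With offsets for transcript GC and length, Mrpl28, Mrpl37, Mrpl39, Mrpl44, Mrpl49 and Mrps35 were higher at that p on PF, and Mrpl42 was lower. Mrpl39, a large-subunit protein with no bacterial counterpart, had 22.9, 24.2, 25.2, 27.0 and 28.2 CPM and then 31.5, 27.0, 29.7, 28.4 and 33.6 CPM, which overlap (0.22 ± 0.08, adjusted p = 0.356). Mrps35 had 14.6, 13.1, 15.6, 16.8 and 17.7 CPM at 12 weeks and 21.4, 16.8, 16.2, 16.99 and 19.1 CPM at 32 weeks (0.20 ± 0.08, adjusted p = 0.407, and 0.13 without the mice numbered 1). Mrps18c gave 0.25 ± 0.11 (adjusted p = 0.413) and, with offsets for transcript GC and length, 0.06 ± 0.09. Mrpl10, which fell on SO, had 59.7, 61.8, 60.8, 69.1 and 60.1 CPM and then 73.3, 59.2, 58.0, 61.7 and 58.5 CPM on PF.

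Whether the change from 12 to 32 weeks differed between diets was tested directly. No member passed in edgeR's quasi-likelihood test with Benjamini-Hochberg adjustment (0% of all genes in each of the 3 tests), nor in DESeq2 (0.165% for PF against SO, 0.0449% for PF against LO and 0% for LO against SO). For PF against SO, 76 of 76 members had a positive difference of change, with a median of 0.18, and 3 members were past an unadjusted p of 0.05 (2.84% of all genes) and 0 on the other side (6.65%). Mrpl10 (0.24 ± 0.10, adjusted p = 0.449), Mrpl44 (0.23 ± 0.10, adjusted p = 0.456) and Mrpl49 (0.23 ± 0.11, adjusted p = 0.480) were these 3. Without PF mouse 1 of 32 weeks, 62 of 76 were positive, the median was 0.07 and 1 was past that p, while without PF mouse 3 of 32 weeks 13 were past it. For PF against LO, 66 of 76 were positive with a median of 0.09 and 2 past an unadjusted p of 0.05 (3.61% of all genes), with 0 on the other side (4.19%). They were Mrpl47 (0.30 ± 0.13, adjusted p = 0.580) and Mrpl50 (0.25 ± 0.12, adjusted p = 0.641), and Mrpl49 came next at 0.20 ± 0.11 (0.10 without the mice numbered 1). Here the median turned to -0.05 without that mouse, with 32 of 76 positive. LO against SO gave 62 of 76 positive, a median of 0.10 and 0 members past an unadjusted p of 0.05 (1.10% and 2.23% of all genes), with Mrpl23 (0.27 ± 0.13), Mrps15 (0.23 ± 0.13) and Mrpl37 (0.12 ± 0.08) at the smallest p and an adjusted p of 0.9998. The median was 0.06 without SO mouse 1 of 12 weeks and 0.15 without SO mouse 2 of 12 weeks.

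Within groups, the members tended to vary together from mouse to mouse. Deviations from the group mean, taken over 30 mice that share their library's depth and base composition with every gene of that library, correlated at a mean r of 0.39 over 2850 pairs of members, and 84.2% of pairs were above 0. Without PF mouse 1 of 32 weeks the mean r was 0.26, and without all mice numbered 1 it was 0.33. No mean r was worked out for other sets of genes, so these values are not shown to be particular to the members. The members that followed the mean of the others most closely were Mrpl18 (r = 0.94), which binds the 5S rRNA in bacteria, Mrpl51 (r = 0.93) and Mrpl54 (r = 0.92), both with no bacterial counterpart. Those that followed it least were Mrpl50 (r = -0.16), Mrps6 (r = -0.15), whose locus overlaps Slc5a3 on the same strand, and Mrpl3 (r = -0.14). Without the mice numbered 1, Mrpl3 correlated at 0.53 and Mrpl50 at 0.25 with the others, and Mrps6 at -0.13.

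**Figure D4:**
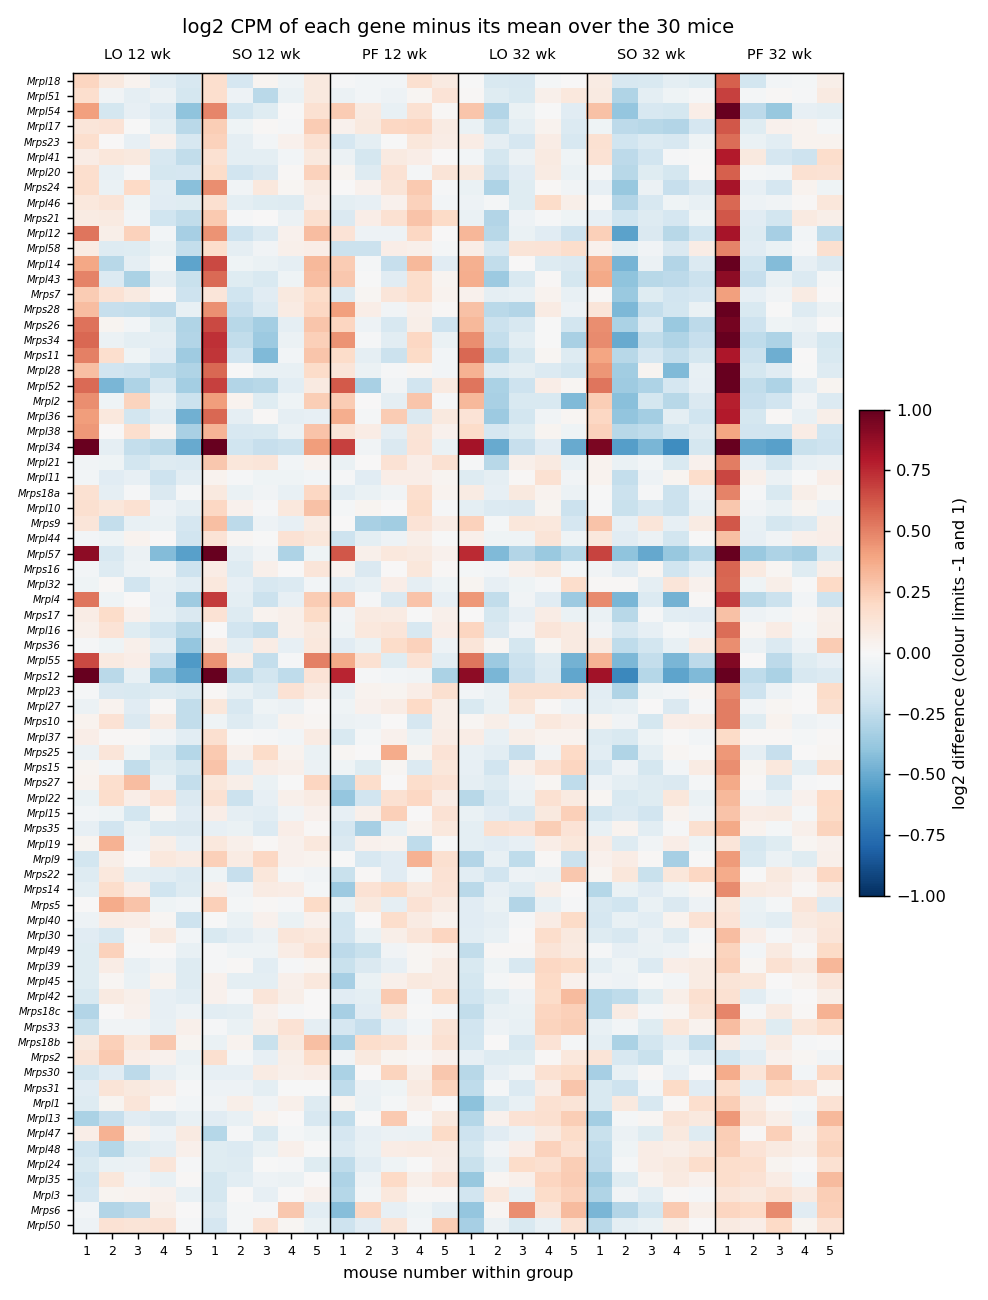
Deviation of each member (76 rows) from its mean over 30 mice (log2 CPM, colour scale) in each mouse (columns, by diet and weeks). The column of PF mouse 1 at 32 weeks is positive for most members, and the mice numbered 1 form a recurrent pattern in a subset of rows that includes Mrps12 and Mrpl34.

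The other genes of mitochondrial translation and its surroundings were read from lists of known function. Subunits whose symbols do not follow the rule numbered 5, among them Dap3, a GTP-binding protein of the small subunit. Over time on SO all 5 were negative with 0 called, and Dap3 stood at -0.25 ± 0.08, with an adjusted p at the threshold and not past it. The list of aminoacyl-tRNA synthetases, which charge mitochondrial tRNAs, held 20 genes, with the amidotransferase subunits Qrsl1, Gatb and Gatc among them. Of these 20, 1 fell in SO mice, Ears2, by 0.29 ± 0.09 on the log2 scale (edgeR, adjusted p = 0.0435, with 6.46% of all genes called), and 4 were positive. Of 25 assembly and rRNA-modifying factors 6 were positive in SO mice, with a median of -0.15 and 0 called, and the GTPase Mtg1 had -0.25 ± 0.08 (adjusted p = 0.0593). Of 24 import genes, which bring the proteins into the organelle, 1 was positive, of 81 cytosolic ribosomal proteins 8, and of 85 nuclear subunits of oxidative phosphorylation 14, with medians of -0.12, -0.12 and -0.10 and 0 called in each. The 13 translation factors had 3 positive and a median of -0.04, the 12 mRNAs of the mitochondrial genome that were tested 5 and -0.02, and the 13 transcription and RNA stability factors 4 and -0.05, all with 0 called. Of the 9 nuclear regulators of mitochondrial genes 4 were positive with 0 called, and Gabpb1, a subunit of GABP, had 0.27 ± 0.09 (adjusted p = 0.0534). The 2 mitochondrial rRNAs, which a poly(A) selection captures in part, had a median of 1.20 with 0 called. This rested on SO mouse 5 of 32 weeks, which had 602 CPM of mt-Rnr1 and 1048 CPM of mt-Rnr2, against 68.6 to 113.6 and 115 to 203.5 CPM in the other 4 SO mice of that time. Without that mouse, left out after its values were seen, the mean log2 CPM of the pair was 6.82 at 32 weeks and 6.77 at 12 weeks on SO.

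For PF against SO at 32 weeks, where 0 of these genes were called, the same lists differed in their medians. The lean seen in the members was also present for import (24 of 24 positive, median 0.20), cytosolic ribosomal proteins (79 of 81, 0.28), nuclear oxidative phosphorylation subunits (83 of 85, 0.22) and the 5 subunits under other names (5 of 5, 0.19). It was smaller for assembly factors (21 of 25, 0.13), translation factors (9 of 13, 0.04), synthetases (14 of 20, 0.03), mitochondrial mRNAs (7 of 12, 0.04), transcription and RNA stability factors (9 of 13, 0.06) and regulators (2 of 9, -0.03). The lean of most of these lists was smaller without PF mouse 1 of 32 weeks. As a difference of mean log2 CPM between PF and SO, it went from 0.18 to 0.10 without that mouse for import, from 0.22 to 0.08 for cytosolic ribosomal proteins, from 0.18 to 0.04 for oxidative phosphorylation, from 0.18 to 0.06 for the subunits under other names and from 0.09 to 0.05 for assembly factors. It went from 0.04 to 0.03 for translation factors, from 0.07 to 0.04 for transcription and RNA stability factors and from 0.01 to -0.01 for synthetases. For the mitochondrial mRNAs (0.03 to 0.07) and the regulators (-0.06 to -0.08) the difference grew in size. The 2 mitochondrial rRNAs had a median log2 difference of -0.90, and their mean log2 CPM, 7.04 in PF mice, was 7.38 in SO mice and 6.82 without SO mouse 5. In LO mice 1 of 85 genes of the oxidative phosphorylation list was called over time, where 2.70% of all genes were. This was Cox4i2, an isoform of a cytochrome oxidase subunit, which rose (log2 fold change 1.64 ± 0.38, edgeR, adjusted p = 0.0212). Its level was low, 0.10 to 0.20 CPM at 12 weeks and 0.27 to 0.74 CPM at 32 weeks in these mice. Mouse by mouse, the member score went with import at r = 0.98, with the subunits under other names at 0.98, with oxidative phosphorylation at 0.92, with assembly factors at 0.87 and with cytosolic ribosomal proteins at 0.85, and with the mitochondrial mRNAs at -0.17 (30 mice, deviations from group means). Without the mice numbered 1 these values were 0.98, 0.93, 0.73, 0.79, 0.48 and 0.45.

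The tissue matched its label in that secretory and luminal markers were high and seminal vesicle markers, of the neighbouring gland, were at most 0.276 CPM in sum. The 5 luminal markers summed to 2102 to 2834 CPM and went with the member score at r = 0.78 (0.31 without the mice numbered 1). The summed level of 7 leukocyte markers moved with time on SO, from 110 to 146 CPM at 12 weeks to 185 to 480 CPM at 32 weeks, with 6 of 7 called higher, such as Ptprc, the common leukocyte antigen (1.85 ± 0.37, adjusted p = 0.00501), and none at 0. In the other groups the sums overlapped, at 94.2 to 234.5 and 142 to 419 CPM in LO mice and 131 to 372 and 176 to 310 CPM in PF mice. The summed level of 4 secretion markers did not overlap between times in LO mice (206100 to 327000 and then 112800 to 200300 CPM) or SO mice (227500 to 319300 and then 145800 to 170900 CPM), while it overlapped in PF mice (178200 to 335400 and 129700 to 301100 CPM). The 4 secretion markers did not move together, with 2 of 4 positive over time and 1 called lower in both LO and SO mice. Their mean log2 CPM was 13.73 at 12 weeks and 13.74 at 32 weeks in LO mice, and 13.91 and 13.79 in SO mice. Sbp, the gene of the secreted spermine-binding protein, fell over time in SO (by 0.96 ± 0.22, adjusted p = 0.0100) and LO mice (by 0.81 ± 0.22, adjusted p = 0.0410, edgeR), and the basal marker Trp63 rose in both (0.44 ± 0.12 and 0.64 ± 0.12). The sums of the smooth muscle, fibroblast, endothelial, basal, adipocyte and skeletal muscle markers overlapped between times in each diet. Between PF and SO at 32 weeks, 4 of 4 adipocyte markers tested were positive (median 1.84, 3 past an unadjusted p of 0.05 and 0 called), with sums of 47.1 to 534.7 CPM in PF mice (289.1 in mouse 1) and 26.5 to 194.5 CPM in SO mice, and none of the markers was at 0. The 4 secretion markers were also positive there (median 0.47, 2 past that p and 0 called), and of the 7 leukocyte markers 0 were positive (median -0.17). The part of these shifts in the fall of Mrpl10 and in the leans of the members over time on SO and between PF and SO was not tested.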

How the data were processed

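RNA-seq libraries of 30 VP samples (stranded poly(A) kit) were aligned by the authors to the mouse genome and counted per gene; the submitters' processing notes name TopHat2, TopHat, HTSeq, DESeq2 and GRCm38.p6, without versions. The deposited values are raw read counts for 39179 Ensembl genes, of which 37607 matched a symbol in GENCODE M21. The annotation and strand setting behind the counts are not given in the sources used here. Summary lines that name no gene were left out: reads not on genes made up 23.7% to 32.2% and multimapped reads 16.0% to 20.3% of each file. Depth was 27590631 to 41301707 counts per mouse, with a median of 33684704, and reads without molecular identifiers were treated as they stand.

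Counts were tested with edgeR 4.0.16 in R 4.3.3, using its own filter on low counts, TMM scaling, the quasi-likelihood test and Benjamini-Hochberg adjustment over all genes tested, with calls at an adjusted p under 0.05. Diets were compared in a fit of the 15 mice of a time point, time and differences of change in a fit of all 30. Nothing says whether mice shared a cage or litter. CPM used TMM scaling, and scores used log2 CPM with a prior count of 2. DESeq2 1.42.0, other scalings, filters and fits, and leaving out mice were tried as alternatives, and the scripts were tested on simulated data. Transcript GC and length came from GENCODE M21.

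The members and the lists were chosen with earlier results of these data known. Named were, per comparison, up to 5 called members in each direction or, with fewer than 3 calls, the 3 with the smallest p; the 3 highest and lowest per exon length; the 3 that followed the others most and least; and a set of genes named for their roles. Of other lists, called genes or those of smallest p were named.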

Additional observations from a re-analysis of the deposited data

Results flagged for a closer look

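Among 65 sets of 5 mice that were tested with Dixon's ratio (critical value 0.71), 14 held a mouse that stood apart. Chance picks a single set about 1 in 20 times, but the sets share libraries and some were added after their values were seen, so the count is not set against that rate. Of these, 6 were mouse 1 of each group for Mrps12, at 31.9 CPM (LO), 34.4 CPM (SO) and 25.45 CPM (PF) at 12 weeks and 27.95 CPM (LO), 26.85 CPM (SO) and 44.0 CPM (PF) at 32 weeks, with the 24 other mice at 9.58 to 16.5 CPM. PF mouse 1 at 32 weeks stood apart in the member score (4.97 against 4.38 to 4.50 in the rest of its group), in Mrps14 (46.0 CPM against 33.6 to 35.4), in Mrpl10 (73.3 CPM against 58.0 to 61.7) and in Mrpl37 (38.35 CPM against 33.2 to 33.9). SO mouse 1 stood apart at 12 weeks in Mrps24, with 37.0 CPM against 26.2 to 28.8, and at 32 weeks in Mrps30, with 13.8 CPM against 16.4 to 17.5. Of the 14, 2 were not mice numbered 1: PF mouse 4 at 12 weeks had 69.1 CPM of Mrpl10 against 59.7 to 61.8, and LO mouse 2 at 32 weeks had 32.0 CPM of Mrpl37 against 34.5 to 35.3. Mrpl37 and Mrps24 were added to the genes looked at in this way after their values were seen. What sets these mice apart was not tested.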

How the results depend on the processing

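Calls among members at 12 and 32 weeks between diets stayed at 0 in edgeR under every alternative run, DESeq2 included. Over time, the calls for LO were 0, and 1 at an adjusted p under 0.1 (8.04% of all genes), 1 with GC and length offsets (9.61%), 5 with offsets and the replicate block together (10.4%) and 2 without the mice numbered 1 (2.78%). For SO they were 1, and 2, 2, 8 and 2 under the same settings (10.5%, 9.86%, 10.1% and 8.88% of all genes), 0 with only the 2 groups in the fit and 0 to 2 when single mice were left out. The offsets, and leaving out PF mouse 1 for the pairwise r and the list scores or SO mouse 5 of 32 weeks for the rRNAs, were chosen after seeing the data. The median for PF against SO at 32 weeks was 0.0665 to 0.24 when single mice were left out, lowest without PF mouse 1. The median difference of change of PF against SO was 0.07 to 0.23, and 0.0401 without the mice numbered 1. That of PF against LO was -0.0493 to 0.13, and -0.0987 without the mice numbered 1. The mean pairwise r was 0.26 without PF mouse 1. The cause was not tested. Mice numbered 1 deviated together, with correlations of 0.28 to 0.55 in all 15 pairs of groups, but mice of the other numbers did not in every pair (those numbered 4 at -0.40 to 0.51), so the numbers as a whole do not pair the samples. The replicate block alone left the calls at 0 for PF against SO at 32 weeks (median 0.20) and at 1 for SO over time, while members past an unadjusted p of 0.05 went from 15 to 26 higher in PF against SO at 32 weeks, from 2 to 10 in PF against LO and from 6 to 15 lower over time on SO. The 36 differences of the members with the smallest p per comparison kept their direction in every alternative run, 20 of them moved by over 1.5 times in at least 1, and among them Mrpl10 and Mrpl17 on SO and Mrps35 on LO were called in some settings and not in others. The 5 calls on LO with offsets and block together were Mrpl2, Mrpl20, Mrps17, Mrps18b and Mrps21, and the 8 on SO were Mrpl10, Mrpl17, Mrpl20, Mrpl42, Mrpl55, Mrps12, Mrps17 and Mrps21. Medians near 0 (PF against SO at 12 weeks, LO over time) changed sign under several settings, and that of PF over time did so without PF mouse 1 (-0.01) and without the mice numbered 1 (-0.05), by less than the SD between mice. With 5 mice per group, the members' standard errors, mostly near 0.1 or above on the log2 scale, limit what can be seen.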
